A study of Mus musculus with 13 samples.

Results

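The mural cells of blood vessels, the pericytes and vascular smooth muscle cells, were followed by 10 marker genes through crush injury of the mouse sciatic nerve: Notch3, Rgs5, Cspg4, Pdgfrb, Mcam, Abcc9, Acta2, Tagln, Myh11, and Des. The genes were chosen by name as markers of these cells, with earlier results of these data known. All 10 were found among the 40787 genes of the count table and passed the filter on low counts in each of 5 comparisons. RNA was sequenced from the sciatic nerves of C57BL/6 mice at 5 days post-crush (dpc). All mice carried floxed alleles of Rptor, which encodes Raptor, a subunit that the growth-controlling kinase complex mTORC1 needs, and all received tamoxifen at 2 months of age and surgery 2 months later. RaptorKOs carried in addition a tamoxifen-inducible Cre recombinase (CreERT2) that directs recombination to Schwann cells (SCs), whereas controls (Rptor flox/flox) carried no Cre. The groups were crushed control nerves (control injured, n = 3), crushed RaptorKO nerves (RaptorKO injured, n = 3), uninjured nerves of the other side in controls (control contralateral, n = 3), and the same in RaptorKOs (RaptorKO contralateral, n = 4). The comparisons ask how nerves respond to injury when SCs cannot use mTORC1. The Cre was not aimed at mural cells, and each library held RNA of a whole nerve piece without the epineurium. Fewer cells of a type and less RNA per cell therefore cannot be told apart, nor can RNA of a marker gene from mural cells and from other cells.

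Pericytes sit within the basement membrane of capillaries, and smooth muscle cells wrap arterioles and larger vessels. Endothelial cells attract and hold mural cells through PDGF-B, which acts on the receptor encoded by Pdgfrb, and through Notch ligands, which act on Notch3. Smooth muscle cells are set apart by a contractile apparatus of smooth muscle actin (Acta2), myosin heavy chain (Myh11), and associated proteins, whose genes are classical targets of serum response factor and its myocardin-family partners at a DNA element called the CArG box.

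The libraries held 8200458 to 13581775 counts, and the lowest count of a member in a library was 87. Rptor itself ranged from 35.0 to 52.5 CPM (counts per 1e+06 counts of the library, scaled with TMM factors) in the 6 control libraries and from 22.1 to 28.6 CPM in the 7 RaptorKO libraries, without overlap. Both nerves labelled Control 3 differed from the other 11 libraries in sex-linked transcripts, with 14462 to 15017 counts of Xist against 4 to 17. The library RaptorKO injured 2 had the lowest summed level of 8 macrophage markers among the injured nerves (1548 CPM, against 2449 to 3259 CPM in the other 5) and the highest summed level of 12 endothelial markers of all libraries (1267 CPM). Of the skeletal muscle markers, Ckm, Acta1, Myh1, Myh2, Myh4, and Mb were at or below 0.762 CPM in every library, but Tnnt3 was not, at 0.365 to 0.865 CPM in injured and 2.52 to 24.7 CPM in contralateral nerves. The 12 skeletal muscle markers summed to 3.38 to 4.70 CPM in injured and 8.32 to 29.7 CPM in contralateral nerves, and the part of muscle in the differences after injury was not tested. Crushed and contralateral nerves of the same number were taken as nerves of 1 mouse, and the groups were compared without pairing, which is given as an alternative where it changed a call.

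Promoters were searched for the element named above. RefSeq windows of the 250 bases before the start (GRCm38.p6) were used for 7 of the 10 members, all but Tagln, Myh11, and Pdgfrb, and stretches are shown here for the contractile gene Acta2, for its partner Myl9, the regulatory light chain of smooth muscle myosin, and for Rgs5. None of the 7 windows held a CArG box in its strict form (CC, 6 bases of A or T, then GG), which is found in 1.47% of all 32851 windows. With 1 C or G allowed among the 6 central bases, 1 of 7 member windows (Acta2, 2 boxes) held a box, against 8.59% of all windows. In 31 windows of other mural genes, 2 held the strict form (6.45%), those of Myl9 and of Srf, which encodes serum response factor. The 30 bases around each box of Acta2 (minus strand) and Myl9 (plus strand) are printed 5′ to 3′ with the box in capitals. Both Acta2 stretches lie before the RefSeq start but within the 5′ UTR exon of a longer GENCODE transcript, and both Myl9 stretches lie before the gene.
Acta2, chr19:34255438-34255467, 84 bases before the start: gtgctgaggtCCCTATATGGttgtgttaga
Acta2, chr19:34255388-34255417, 34 bases before the start: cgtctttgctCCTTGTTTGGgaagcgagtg
Myl9, chr2:156775293-156775322, 161 bases before the start: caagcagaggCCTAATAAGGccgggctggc
Myl9, chr2:156775355-156775384, 99 bases before the start: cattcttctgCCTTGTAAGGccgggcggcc
Rgs5, the member whose response to injury differed between the genotypes under every analysis tried, had no box in either form in its window on the plus strand, directly upstream of the gene, at chr1:169655251-169655500: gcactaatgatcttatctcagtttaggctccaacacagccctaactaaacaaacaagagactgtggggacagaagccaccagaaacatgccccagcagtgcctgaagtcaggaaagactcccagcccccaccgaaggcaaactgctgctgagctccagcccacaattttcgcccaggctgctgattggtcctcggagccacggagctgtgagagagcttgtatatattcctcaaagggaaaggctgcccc

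In the resting nerve the members spanned a wide range of levels. Compared per kilobase of exon in control contralateral nerves, Tagln, an actin-binding protein of smooth muscle, was highest at 116 ± 12.1 CPM per kb (SD, n = 3). Rgs5, a regulator of G-protein signaling typical of pericytes, followed at 61.4 ± 5.13 CPM per kb, then Pdgfrb at 37.1 ± 1.53, Acta2 at 27.6 ± 0.97, and Mcam, an adhesion molecule also made by endothelium, at 16.9 ± 2.05 CPM per kb. The libraries of these 5 genes did not overlap between neighbors in this order. The others lay lower, with Notch3 at 7.34 ± 1.15, the proteoglycan gene Cspg4 (NG2) at 5.81 ± 0.296, and Myh11 at 5.73 ± 0.32 CPM per kb, and with the potassium channel subunit gene Abcc9 at 3.998 ± 0.624 and the intermediate filament gene Des at 3.77 ± 0.479 CPM per kb. Cspg4 and Myh11 overlapped, as did Abcc9 and Des. After injury the order changed at the top, as Mcam led the control injured nerves (104 ± 9.21 CPM per kb) and Rgs5 the RaptorKO injured nerves (116 ± 19.2 CPM per kb).

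**Figure D1:**
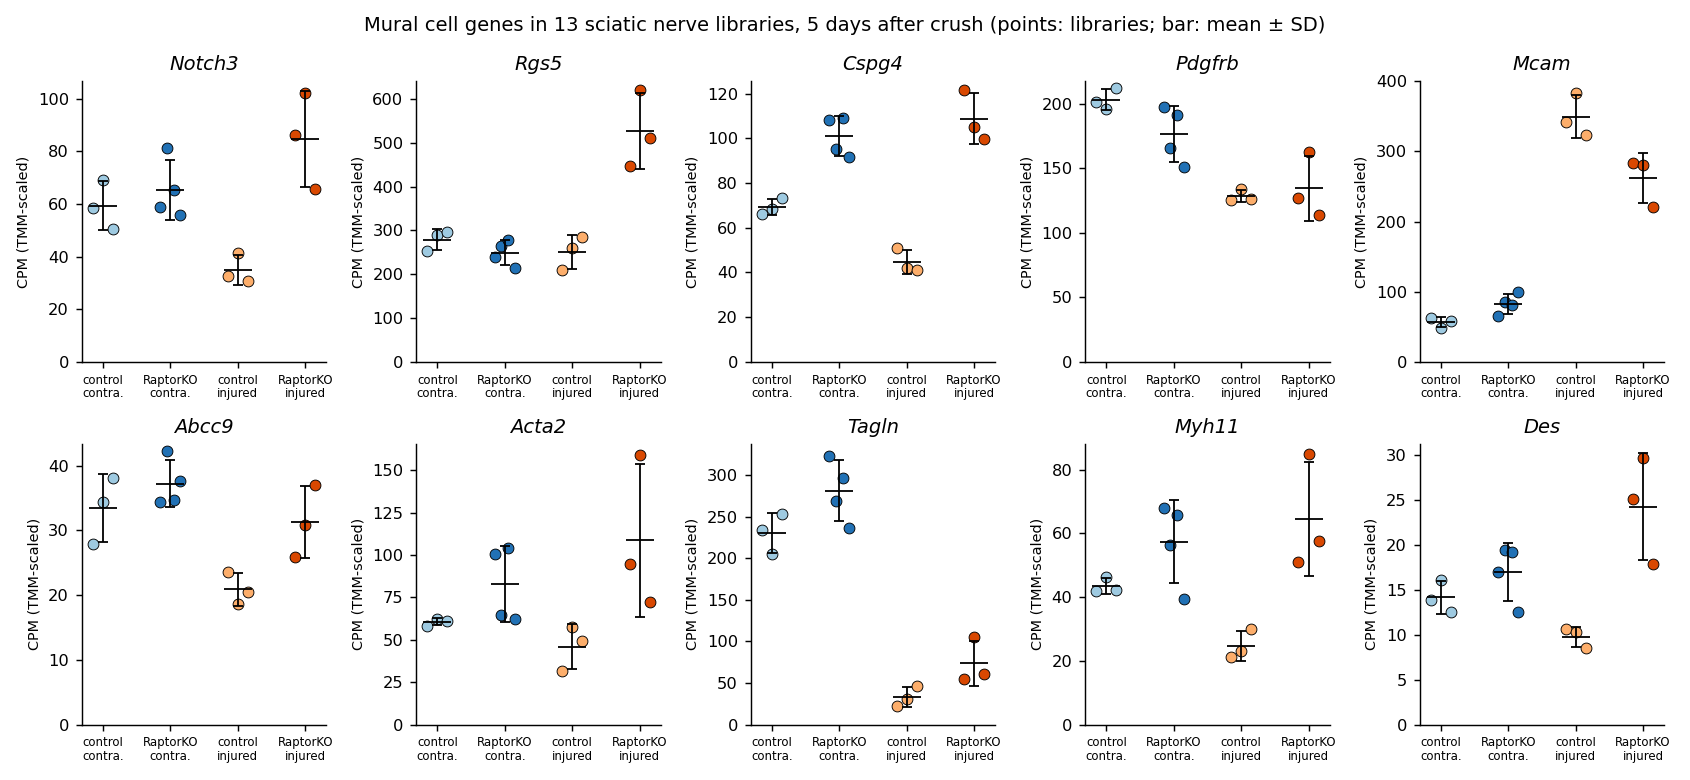
Levels of the 10 mural genes in each of 13 libraries (points), with the mean and SD of each group (bars), in CPM on linear axes from 0. The RaptorKO injured libraries lie above the control injured ones for 8 genes, overlap for Pdgfrb, and lie below for Mcam.

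In controls, crush injury lowered most of these genes. Of the members, 8 fell and 1 rose at 5 dpc, where a gene was called if edgeR's quasi-likelihood test gave an adjusted p under 0.05 and the fold exceeded 1.2. Among all 12430 genes tested 32.9% were called lower and 32.4% higher. The median log2 fold change of the members was -0.67, and that of all genes tested was -0.0015. All injured libraries lay below all contralateral ones in 8 members and above them in 1, as they did in 34.7% and 36.2% of all genes.

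Tagln (chr9:45929619-45936058, minus strand, GRCm38) fell most steeply of the 10. Its level was 233.5, 205.6, and 253.5 CPM in control contralateral nerves and 22.02, 30.8, and 46.5 CPM in control injured nerves, so that every injured library lay far below every contralateral one. The log2 fold change was -2.83 ± 0.21 (SE; adjusted p = 1.9e-07), a 7.10-fold fall. Of the 100-base stretches of Tagln transcripts, 48.3% are shared with Pcsk7 and Gm48529 on the other strand, and the strand setting of the counting is not given in the sources used here. Pcsk7 itself lay between 15.2 and 29.8 CPM in all libraries.

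The other contractile genes had smaller log2 fold changes. Myh11 (chr16:14194535-14291372, minus strand) was at 42.0, 46.3, and 42.3 CPM in contralateral and at 21.1, 23.0, and 29.9 CPM in injured control nerves (log2 -0.84 ± 0.15, adjusted p = 0.00034), without overlap. Des fell by 0.56 ± 0.19 on the log2 scale (adjusted p = 0.023), from 12.5 to 16.1 CPM down to 8.52 to 10.6 CPM, and this call was lost without control contralateral 2 or without control injured 3. For Acta2 the difference (log2 -0.43 ± 0.17, adjusted p = 0.048) was at the threshold and did not pass it in 11 of 17 alternative analyses, among them those without each contralateral library and without control injured 1 or 3.

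Among the pericyte genes, Notch3 (chr17:32120820-32166852, minus strand) fell from 58.6, 69.1, and 50.5 CPM to 32.4, 41.3, and 30.8 CPM (log2 -0.80 ± 0.15, adjusted p = 0.00049). Pdgfrb (chr18:61045150-61085061, plus strand) fell from 201.0, 196.0, and 212.4 CPM to 125.6, 134.0, and 125.9 CPM (log2 -0.69 ± 0.08, adjusted p = 1.7e-05). Cspg4 fell by 0.66 ± 0.11 (adjusted p = 0.00019) and Abcc9 by 0.71 ± 0.15 (adjusted p = 0.0016) on the log2 scale, and the groups of all 4 genes did not overlap. Rgs5 did not pass the test (log2 -0.17 ± 0.13, adjusted p = 0.25), with 252.2, 289.1, and 295.4 CPM in contralateral and 209.3, 260.2, and 284.7 CPM in injured nerves.

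Mcam (chr9:44134469-44142727, plus strand) went the other way. It rose from 62.2, 48.9, and 58.8 CPM to 341.5, 383.6, and 323.4 CPM (log2 2.60 ± 0.12, adjusted p = 2.8e-09), a 6.07-fold rise. The gene Gm10687 overlaps it on the other strand, at 4.10 to 15.1 CPM. Over the 13 libraries its log2 level was closest to those of Kif14 (r = 0.991), Slc22a23 (r = 0.991), and Rcc2 (r = 0.991), none of which is on the mural or endothelial lists, whereas Notch3 was closest to Des (r = 0.948) and the endothelial gene Vwf (r = 0.931), and Rgs5 to the endothelial genes Pecam1 (r = 0.930) and Tek (r = 0.923). The 3 genes nearest to each member on this scale made 30 entries, in which a gene near several members counts once for each. Of these entries 3 were members, 2 were on the endothelial list, and 0 on the list of other mural genes. These correlations describe 13 libraries that share 4 group means.

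In RaptorKO nerves, crush injury raised Rgs5 and Mcam and lowered Tagln and Pdgfrb. Thus 2 members rose, 2 fell, and 6 did not pass the test, with 30.5% of 12515 genes called higher and 28.5% lower, and the median log2 fold change of the members was 0.27 (all genes tested, 0.03). The groups were apart in 3 members, with the injured libraries above in 2 and below in 1, against 31.7% and 28.8% of all genes. Rgs5 rose from 240.1, 264.3, 277.6, and 214.2 CPM in RaptorKO contralateral to 447.5, 620.2, and 511.6 CPM in RaptorKO injured nerves, without overlap (log2 1.08 ± 0.13, adjusted p = 4.2e-05). Mcam rose by 1.66 ± 0.14 on the log2 scale (adjusted p = 3.4e-06), from between 65.6 and 99.2 CPM to between 220.6 and 283.9 CPM.

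Tagln again fell (log2 -1.93 ± 0.22, adjusted p = 2.3e-05), from 322.6, 269.2, 297.0, and 236.8 CPM to 55.1, 105.1, and 61.1 CPM. Pdgfrb fell by 0.40 ± 0.14 on the log2 scale (adjusted p = 0.031), with overlapping groups, and was not called without RaptorKO contralateral 1 or 3 or without RaptorKO injured 1 or 3. The remaining 6 genes had log2 fold changes of -0.26 to 0.50 and adjusted p of 0.057 to 0.53, and their groups overlapped. Without RaptorKO injured 3, Notch3 and Des were called higher as well, which made 4 higher calls, Abcc9 was called lower (log2 -0.40, adjusted p = 0.043), and Pdgfrb lost its call. Without RaptorKO contralateral 1, RaptorKO contralateral 3, or RaptorKO injured 1 the lower calls were down to 1.

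**Figure D2:**
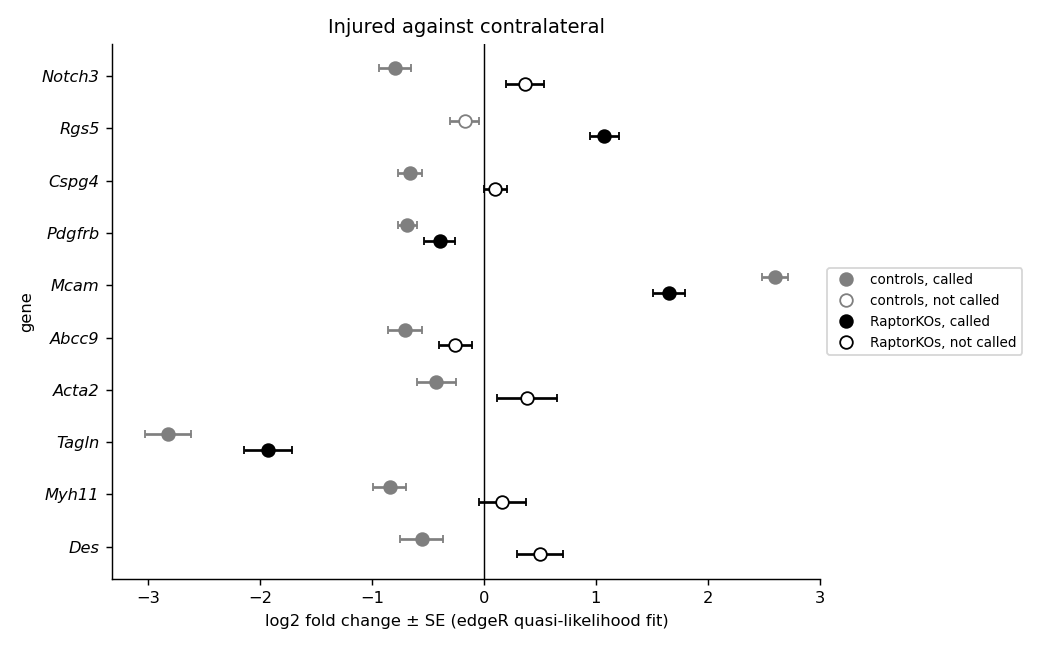
Log2 fold change of injured against contralateral nerves with its SE for the 10 mural genes, in controls (gray) and RaptorKOs (black), with filled points for called genes. In controls 8 genes are called lower, against Pdgfrb and Tagln in RaptorKOs, and the points of Mcam lie to the right in both.

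The crushed nerves of both genotypes were then compared directly. Of the 10 members, 8 were higher in RaptorKO injured than in control injured nerves and none was called lower, while 4.09% of all 12040 genes tested were called higher and 4.44% lower. Their median log2 fold change was 1.22, against 0.0014 for all genes tested. In 8 members every RaptorKO injured library exceeded every control injured library, which was so for 11.7% of all genes, and in 1 member (Mcam) every one was lower, as in 14.6% of all genes.

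All 4 contractile genes were higher in RaptorKO injured nerves. Myh11 was at 21.1, 23.0, and 29.9 CPM in control injured and at 51.0, 84.9, and 57.7 CPM in RaptorKO injured nerves (log2 1.41 ± 0.20, adjusted p = 0.0023). Des was at 10.6, 10.3, and 8.52 CPM against 25.1, 29.7, and 17.9 CPM (log2 1.33 ± 0.21, adjusted p = 0.0037). Neither gene overlapped between the genotypes, and both kept their call in all 17 alternative analyses.

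Acta2 was at 31.5, 57.2, and 49.0 CPM in control injured and at 94.7, 159.1, and 72.0 CPM in RaptorKO injured nerves (log2 1.26 ± 0.28, adjusted p = 0.018). Tagln was at 22.02, 30.8, and 46.5 CPM against 55.1, 105.1, and 61.1 CPM (log2 1.17 ± 0.28, adjusted p = 0.027). Both were without overlap, and in both the library RaptorKO injured 2 was the highest. The call of Acta2 was lost without control injured 1 or 3, and that of Tagln without control injured 1 or 2 or with DESeq2 (adjusted p = 0.060). Pcsk7, which shares sequence with Tagln, was not called (edgeR adjusted p = 0.21).

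Of the pericyte genes, the Notch receptor gene Notch3 was at 32.4, 41.3, and 30.8 CPM in control injured and at 86.0, 102.2, and 65.7 CPM in RaptorKO injured nerves (log2 1.30 ± 0.17, adjusted p = 0.0015). Cspg4 was at 51.1, 41.9, and 41.0 CPM against 121.5, 105.2, and 99.8 CPM (log2 1.30 ± 0.12, adjusted p = 0.00024). Rgs5 was at 209.3, 260.2, and 284.7 CPM against 447.5, 620.2, and 511.6 CPM (log2 1.08 ± 0.16, adjusted p = 0.0022). The genotypes did not overlap in these 3 genes, whose calls held in all 17 alternatives.

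Abcc9 was at 23.6, 18.6, and 20.5 CPM against 25.9, 30.9, and 37.0 CPM, a smaller difference (log2 0.60 ± 0.17, adjusted p = 0.048) whose call was lost without any single library of the 6. Pdgfrb did not pass the test, with 125.6, 134.0, and 125.9 CPM against 126.8, 162.8, and 114.0 CPM (log2 0.08 ± 0.13, adjusted p = 0.80), and its difference turned to -0.08 without RaptorKO injured 2. Mcam was lower in every RaptorKO injured library (283.9, 281.3, and 220.6 CPM) than in any control injured one (341.5, 383.6, and 323.4 CPM), but did not pass the test (log2 -0.40 ± 0.13, adjusted p = 0.086). Leaving out single libraries gave 5 to 7 higher calls among the members, with 5 without control injured 1.

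**Figure D3:**
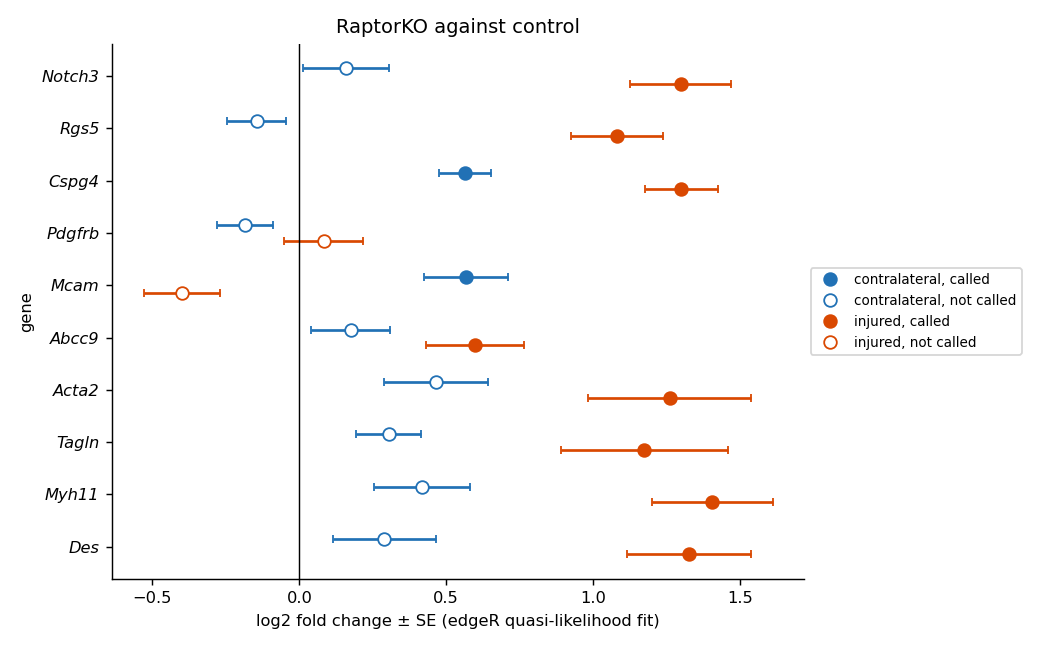
Log2 fold change of RaptorKO against control nerves with its SE for the 10 mural genes, in contralateral (blue) and injured nerves (orange), with filled points for called genes. In injured nerves 8 genes are called at log2 values of 0.60 to 1.41, and Cspg4 and Mcam in contralateral nerves.

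The uninjured nerves of both genotypes were compared as well. Cspg4 and Mcam were higher in RaptorKO contralateral nerves and none was called lower, with 4.49% of 11878 genes called higher and 5.68% lower. Cspg4 was at 66.2, 68.6, and 73.1 CPM in control and at 108.1, 95.3, 109.0, and 91.9 CPM in RaptorKO contralateral nerves (log2 0.56 ± 0.09, adjusted p = 0.0031). Mcam was at 62.2, 48.9, and 58.8 CPM against 65.6, 85.9, 80.5, and 99.2 CPM (log2 0.57 ± 0.14, adjusted p = 0.032). Every RaptorKO library lay above every control one in these 2 members and below in none, against 9.93% and 13.7% of all genes, but the call of Mcam was lost without any 1 of the control contralateral libraries or without RaptorKO contralateral 2, which left 1 member called. The median log2 fold change of the members was 0.30, against 0.01 for all genes tested.

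The contractile genes had log2 values of 0.29 to 0.47 there and adjusted p of 0.12 to 0.35. The library RaptorKO contralateral 4 was the lowest of its group for all 4 of them, at 62.2 CPM for Acta2, 236.8 for Tagln, 39.4 for Myh11, and 12.5 for Des. Without it, Acta2, Tagln, and Myh11 were called higher too, which made 5 calls. Notch3, Rgs5, Pdgfrb, and Abcc9 lay between log2 -0.18 and 0.17, with adjusted p of 0.26 to 0.56 and overlapping groups. In these nerves 3 of 14 tested fibroblast and perineurial markers and 4 of 7 macrophage markers were called higher in RaptorKOs and none lower. Among all genes tested 4.49% were called higher and 5.68% lower. The summed levels of the fibroblast and perineurial markers were 11002 to 15571 CPM in RaptorKOs against 8222 to 8852 CPM in controls. Those of the macrophage markers were 222 to 294 CPM against 140 to 160 CPM. Within the RaptorKO contralateral nerves, libraries 1 and 3 lay above libraries 2 and 4 in Acta2 (100.5, 64.7, 104.2, and 62.2 CPM in libraries 1 to 4). The same order held in Tagln (322.6, 269.2, 297.0, and 236.8 CPM) and Myh11 (68.1, 56.3, 65.8, and 39.4 CPM), but not in Des (17.0, 19.5, 19.3, and 12.5 CPM). Libraries 1 and 3 were also above in the summed level of 5 adipocyte markers (31.8, 1.30, 285, and 1.80 CPM) and in the perineurial and mesothelial genes Cldn1 (150.1, 49.5, 223.2, and 57.6 CPM) and Msln (50.2, 7.10, 77.1, and 15.98 CPM). In control contralateral nerves the adipocyte markers summed to 26.4, 1.63, and 88.1 CPM. The part of these markers in the mural gene differences was not tested.

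Whether the genotype changed the response to injury was tested with the interaction over all 13 libraries. There, 3 members had a higher and 1 a lower response in RaptorKOs, beside 1.07% and 1.41% of 12851 genes. The difference in log2 response was 1.23 ± 0.19 for Rgs5 (adjusted p = 0.0041), 1.14 ± 0.25 for Notch3 (adjusted p = 0.026), 0.74 ± 0.15 for Cspg4 (adjusted p = 0.019), and -0.96 ± 0.20 for Mcam (adjusted p = 0.021). Rgs5 kept its call in all 22 alternatives, and the other 3 lost it in 4 to 9 of them. Without control contralateral 2 or without RaptorKO injured 1, 1 member was called higher, and without control contralateral 2 or control injured 2 none was called lower.

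The interaction did not pass the test for the contractile genes, whose values were 0.79 for Acta2, 0.87 for Tagln, 0.99 for Myh11, and 1.04 for Des, with adjusted p of 0.074 to 0.36. It did not pass for Abcc9 (0.43, adjusted p = 0.40) or Pdgfrb (0.27, adjusted p = 0.56) either. The median of the members was 0.83, against -0.01 for all genes tested.

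A list of 34 other mural genes was read in the same fits. In the injured nerves 26 of them were tested, of which 8 were higher in RaptorKOs and none lower (4.09% and 4.44% of all genes), with a median log2 fold change of 0.61 and with 25 of 26 values above 0. Among genes of the contractile machinery and its control, Myl9 was at 25.2, 38.2, and 35.5 CPM in control injured and at 53.9, 106.6, and 66.7 CPM in RaptorKO injured nerves (log2 1.22 ± 0.24, adjusted p = 0.011). Mylk, the kinase of that light chain, was higher by 0.96 ± 0.14 (adjusted p = 0.0023), and Mrtfb, a myocardin-family coactivator of serum response factor, by 0.62 ± 0.13 (adjusted p = 0.014). Mrtfa (log2 -0.05, adjusted p = 0.88) and Srf (log2 0.22, adjusted p = 0.45) did not pass the test, and Myocd lay below 1 CPM in every library.

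Of the other called genes on that list, Steap4 was at 99.8, 56.4, and 59.3 CPM in control injured and at 146.9, 113.4, and 192.6 CPM in RaptorKO injured nerves (log2 1.09 ± 0.22, adjusted p = 0.013). Heyl, a target of Notch signaling in mural cells, was higher by 1.52 ± 0.41 (adjusted p = 0.041) and the chloride channel gene Ano1 by 1.27 ± 0.34 (adjusted p = 0.038). The levels of Heyl were low, at 1.74, 3.39, and 1.17 CPM in control injured and 7.64, 5.03, and 5.30 CPM in RaptorKO injured nerves. Aoc3 was higher by 1.09 ± 0.24 (adjusted p = 0.017), and the transcription factor gene Ebf1 by 1.04 ± 0.19 (adjusted p = 0.0066). The 8 genes did not overlap between the genotypes. The number of calls was 5 without control injured 1 and 4 without control injured 2.

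The same list was read in the other comparisons. In controls injury lowered 16 and raised 4 of 27 tested genes (median log2 -0.66), beside 32.9% lower and 32.4% higher among all genes tested. In RaptorKOs it lowered 9 and raised 8 of 28 (median -0.06), beside 28.5% and 30.5%. Smtn, which encodes smoothelin, fell in both (log2 -3.83 and -3.67), and the integrin gene Itga7 rose in both (2.38 and 2.07). Smtn was at 973.6 ± 88.9 CPM in control contralateral nerves and Itga7 at 638.4 ± 56.2 CPM in control injured nerves (SD, n = 3). Which cells of the nerve made these RNAs was not tested. In contralateral nerves Kcnj8, Steap4, and Mylk were higher in RaptorKOs (log2 0.63, 0.60, and 0.49) and Myl9 was lower (-0.42), with adjusted p of 0.0066 to 0.041. The higher calls were down to 1 without control contralateral 1 or 3 or without RaptorKO contralateral 1, and were 5 without RaptorKO contralateral 2 or 4. In the interaction Myl9 (1.64 ± 0.29, adjusted p = 0.0086) and Mrtfb (0.62 ± 0.15, adjusted p = 0.039) were called. The call of Myl9 held in all alternatives, and that of Mrtfb was lost without any single library except RaptorKO contralateral 4 and RaptorKO injured 1.

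**Figure D4:**
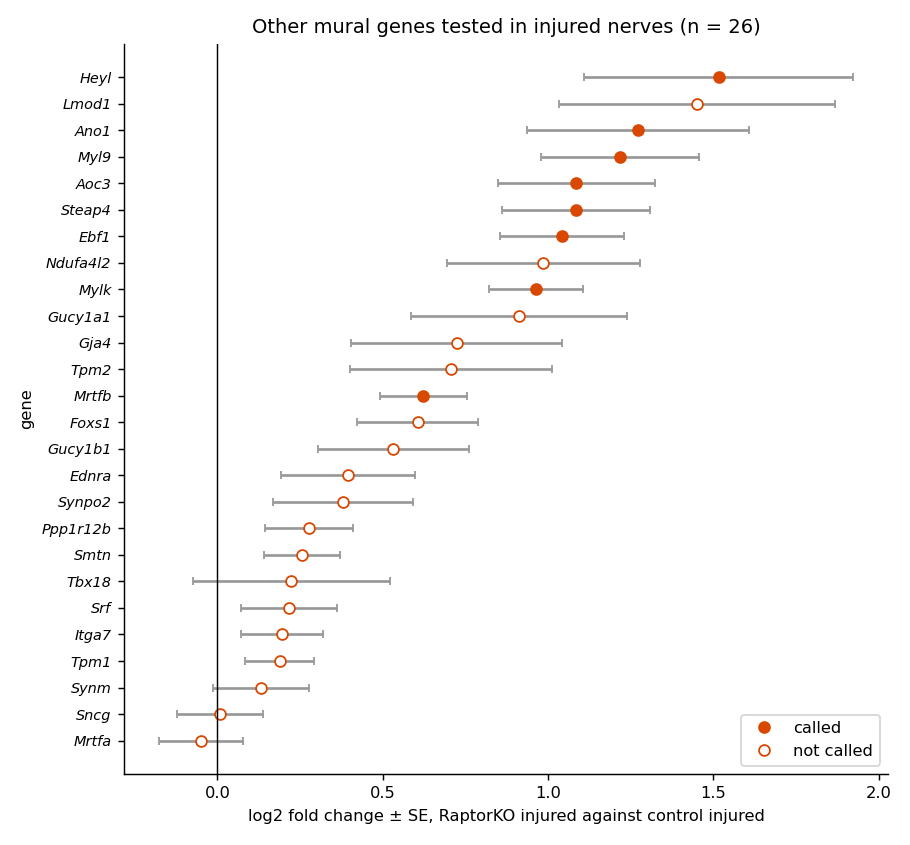
Log2 fold change with its SE of the 26 other mural genes tested in injured nerves, RaptorKO against control, with filled points for the 8 called genes. All but Mrtfa lie above 0.

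Signals that recruit or hold mural cells were read from a list of 25 genes, of which 22 were tested in injured nerves. Of these, 6 were higher in RaptorKOs and none lower, with a median log2 fold change of 0.46. Among all genes tested 4.09% were called higher and 4.44% lower. Among ligands, Edn1, the vasoconstrictor peptide endothelin, was at 6.21, 9.17, and 15.1 CPM in control injured and at 21.5, 36.5, and 20.7 CPM in RaptorKO injured nerves (log2 1.39 ± 0.32, adjusted p = 0.021). The Notch ligand gene Jag2 was higher by 1.18 ± 0.23 (adjusted p = 0.010), and Pdgfb, the ligand of Pdgfrb, by 0.84 ± 0.22 (adjusted p = 0.039). Among receptors, Tek, the angiopoietin receptor of endothelium, was higher by 0.88 ± 0.18 (adjusted p = 0.014) and S1pr1 by 0.73 ± 0.18 (adjusted p = 0.025). Pdgfra, which also marks fibroblasts, was higher by 0.90 ± 0.25 (adjusted p = 0.046, with overlapping groups). Edn1, Jag2, and Tek were also called in the interaction, with log2 values of 1.65, 1.16, and 0.88, and Jag2 lost this call with the replicate block (adjusted p = 0.067). In the injured nerves the call of Edn1 was lost without control injured 1 or 2, that of Jag2 without RaptorKO injured 1, and that of Pdgfra without control injured 2 or 3 or RaptorKO injured 1 or 3. The Notch receptor genes Notch1 and Notch2 had log2 values of -0.23 and 0.31 and did not pass the test (adjusted p = 0.31 and 0.19). Nor did the Notch target genes Hes1 (log2 0.16, adjusted p = 0.74) and Hey1 (log2 0.12, adjusted p = 0.83) pass it, and Hey2 was not tested there.

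Endothelial and red blood cell genes moved with the mural genes in the injured nerves. Of 12 endothelial markers 9 were higher in RaptorKO injured nerves and none lower (median log2 0.81), and in contralateral nerves none was called. Among all genes tested 4.09% were called higher and 4.44% lower in injured nerves, and 4.49% and 5.68% in contralateral nerves. Their summed level was 429 to 653 CPM in control injured, 851 to 1267 CPM in RaptorKO injured, 838 to 885 CPM in control contralateral, and 843 to 953 CPM in RaptorKO contralateral nerves. The calls of Cldn5 and Tie1 were each lost without any 1 of several libraries, control injured 1 and 2 among them, while Vwf kept its call in all 17 alternatives. Of 5 red blood cell markers 3 were tested in the injured nerves and all 3 were higher in RaptorKOs (median log2 2.27), with summed levels of 5.94 to 24.8 CPM against 46.3 to 75.4 CPM, and each of the 3 lost its call without control injured 2. In contralateral nerves Hba-a2 (log2 0.91, adjusted p = 0.049) and Hbb-bs (log2 0.87, adjusted p = 0.032) were also called higher in RaptorKOs, and none of the others was called. The summed levels there were 73.6 to 138.6 CPM in controls and 139.0 to 254.7 CPM in RaptorKOs.

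Set against the endothelial markers, the mural genes of the injured nerves overlapped between genotypes. The mean log2 CPM of the 9 members without Mcam exceeded that of the endothelial markers by 0.48, 0.38, and 0.04 in control injured and by 0.59, 0.46, and 0.57 in RaptorKO injured nerves. In contralateral nerves the excess was 0.31, 0.46, and 0.36 in controls and 0.72, 0.63, 0.61, and 0.29 in RaptorKOs, which overlapped as well. Mcam, the member that lay lower in RaptorKO injured nerves, is left out of these values. With Mcam, the mean log2 CPM of the 10 members was 5.57, 5.74, and 5.74 in control injured and 6.47, 6.85, and 6.37 in RaptorKO injured nerves. The endothelial markers were at 4.77, 5.04, and 5.41 and at 5.70, 6.24, and 5.64 in the same libraries. The part of the endothelial and red blood cell content in the mural gene differences was not tested. The fibroblast and perineurial markers gave 3 higher and 1 lower call of 15 in the injured nerves, beside 4.09% and 4.44% of all genes tested. They summed to 8762 to 13139 CPM in control and 10160 to 16566 CPM in RaptorKO injured nerves. The 8 macrophage markers gave no call there (summed 2449 to 3028 CPM in control and 1548 to 3259 CPM in RaptorKO injured nerves). The part of these cells was not tested either.

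**Figure D5:**
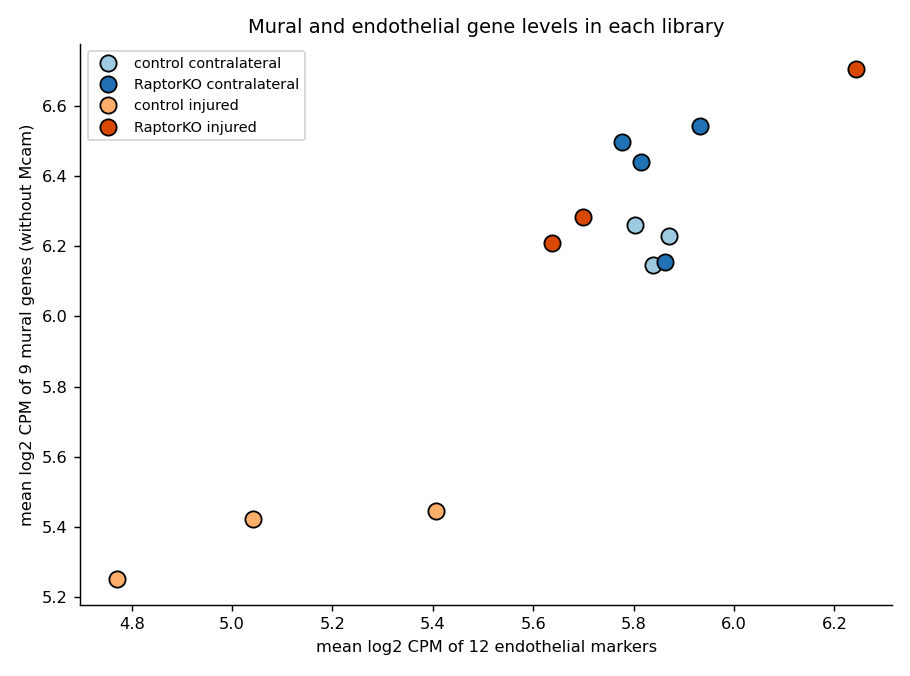
Mean log2 CPM of 9 mural genes (without Mcam) against the mean log2 CPM of 12 endothelial markers, 1 point per library, colored by group. The 3 control injured libraries lie at the lower left, and RaptorKO injured 2 lies at the upper right.

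Within the groups the members did not all move as one. After each group's mean was subtracted, the 45 pairs of members had correlations over the 13 libraries from -0.50 to 0.88 with a median of 0.14. The 6 pairs among the contractile genes lay at 0.14 (Tagln with Des) to 0.82, with a median of 0.63. Pairs of a contractile with a pericyte gene spanned the whole range. The lowest was Acta2 with Abcc9 (-0.50) and the highest Acta2 with Pdgfrb (0.88), and Des with Notch3 (0.84) and Myh11 with Rgs5 (0.81) were also high. The 9 pairs with Mcam had a median of -0.11. Of all genes tested, the one nearest to Tagln on this scale was the endothelial gene Pecam1 (r = 0.968), again as a description over 13 libraries with no test. Of the 30 entries for the genes nearest to each member on this scale, 1 was on the endothelial list, 0 were members, and 0 were other mural genes.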

How the data were processed

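The authors trimmed the reads with Trimmomatic, used GRCm38 as the reference, and obtained gene levels from RSEM 1.2.22, which they deposited in the form of expected counts for 13 libraries. These estimated counts were rounded to whole numbers. Libraries were of separate mice within a group, according to the study, and groups were taken from the sample labels. Genes with at least 50 counts in at least 2 libraries of a comparison were tested with edgeR 4.0.16 (R 4.3.3), with TMM factors, the quasi-likelihood test, and Benjamini-Hochberg adjustment over all genes tested, and called at an adjusted p below 0.05 and a fold change above 1.2. The interaction used all 13 libraries, and the other fits only the groups compared. CPM are counts per 1e+06 counts of the TMM-scaled library size. The totals of 8200458 to 13581775 counts limit the precision of low genes, and the number of libraries limits that of all.

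The alternatives were DESeq2 size factors, upper quartile scaling, no count filter, filterByExpr, DESeq2 1.42.0, the exact test of edgeR that the study used, an adjusted p below 0.01, no minimum fold, a replicate block, all 13 libraries in 1 fit, both Control 3 nerves left out, and each library left out. Within a genotype a number was taken to mark 1 mouse, since the labels give both nerves 1 animal name and the study took the contralateral nerves from the injured mice. Deviations from the group means were correlated between both nerves by 0.067, 0.129, and 0.305 in controls and by -0.024, 0.211, and 0.168 in RaptorKOs. Of 6 injured nerves, 4 were closest to the contralateral nerve of their own number. Nerves of the same number in different genotypes were correlated by 0.072, 0.254, and 0.301 in contralateral and by 0.027, 0.014, and -0.050 in injured nerves. What a number shares between the genotypes was not tested. The code was tested on simulated data. Positions and shared stretches are from GENCODE M21 and promoter windows from RefSeq (GRCm38.p6). The CArG box was searched on both strands, and the form with 1 substitution was added after the windows were seen. Plots were made in matplotlib 3.10.9 under Python 3.11.15.

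The members and lists were chosen with earlier results of these data known. The rule for naming genes took all members and up to 6 called genes per comparison and direction of the other mural list by size of change. It also took up to 3 of each further list and the 3 genes most like each member. The text gives all members but only part of the other genes that this rule takes in. Mylk in injured nerves, Mrtfb in injured nerves, Mrtfa, Srf, Myocd, Pdgfb, S1pr1, Tek in injured nerves, Notch1, and Notch2 lie outside this rule and were named after their values were seen. The same is true of Hes1, Hey1, and Hey2 between the genotypes in injured nerves. The list of 10 SC markers gave 3 lower and no higher calls in injured nerves between the genotypes, beside 4.44% lower and 4.09% higher among all genes tested. That of 5 adipocyte markers gave no call in any comparison. An item withheld from this text is not reported here.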

Additional observations from a re-analysis of the deposited data

Results flagged for a closer look

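These genes were marked for a closer look because their response to injury differed between the genotypes in the interaction test of edgeR. The difference in log2 response, RaptorKO minus control, was 1.14 for Notch3, 1.23 for Rgs5, 0.74 for Cspg4, and -0.96 for Mcam among the members, and 1.64 for Myl9 and 0.62 for Mrtfb among the other mural genes. Notch3 fell after injury in controls (log2 -0.80) and had a value of 0.37 in RaptorKOs. Rgs5 had a value of -0.17 in controls and rose by 1.08 in RaptorKOs. Cspg4 fell in controls (-0.66) and had a value of 0.10 in RaptorKOs, and its level in contralateral nerves was higher in RaptorKOs. Mcam rose in both, by 2.60 in controls and by 1.66 in RaptorKOs.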

How the results depend on the processing

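Over all alternatives the members kept their direction and side of the threshold in 150 of 170 cases for RaptorKO in injured nerves, 168 of 180 in contralateral nerves, 154 of 170 for injury in controls, 153 of 170 for injury in RaptorKOs, and 196 of 220 for the interaction. The direction turned for Myh11 under injury in RaptorKOs (log2 -0.00368 with the replicate block, and -0.081 to 0.31 with 1 library left out, the lowest without RaptorKO injured 2) and for Pdgfrb in injured nerves (-0.084 to 0.19 with 1 library left out, the lowest without RaptorKO injured 2), none of them called. The cause was not tested.

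Members called for RaptorKO in injured nerves were 8 higher, with 5 at an adjusted p below 0.01 and 1 lower with DESeq2. In contralateral nerves they were 1 higher at 0.01 and without both Control 3 nerves, and 5 with the replicate block. For injury in RaptorKOs they were 4 higher and 1 lower with upper quartile scaling, 4 higher without a count filter, and 1 lower at 0.01. For the interaction they were 5 higher without a count filter and with DESeq2, and 1 higher and 0 lower at 0.01 and without both Control 3 nerves. Other mural genes called in injured nerves were 14 higher without a count filter and 2 at 0.01. In contralateral nerves they were 6 higher with DESeq2, 7 with the block, and 1 at 0.01 and without both Control 3 nerves, and 0 lower with upper quartile scaling, at 0.01, in 1 fit of all libraries, and without both Control 3 nerves. In the interaction they were 1 higher at 0.01.

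Leaving out 1 library gave, for the members, 5 to 7 higher and 0 lower calls in injured nerves, 1 to 5 higher and 0 lower in contralateral nerves, 1 higher and 6 to 8 lower for injury in controls, 2 to 4 higher and 1 to 2 lower for injury in RaptorKOs, and 1 to 4 higher and 0 to 1 lower for the interaction. For the other mural genes it gave 4 to 8 higher in injured nerves, 1 to 5 higher and 0 to 2 lower in contralateral nerves, 3 to 5 higher and 15 to 16 lower for injury in controls, 7 to 9 higher and 8 to 9 lower for injury in RaptorKOs, and 1 to 3 higher for the interaction.

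In the comparisons of injury and in the interaction, where the replicate block pairs the nerves of 1 mouse, it changed the call of no member and of no other mural gene named. Between the genotypes a number marks no shared mouse. There the block gave 7 higher calls among the members in injured nerves, without Abcc9 (adjusted p = 0.089), and Heyl (0.065) and Ano1 (0.056) lost their calls.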
